A study of Saccharomyces cerevisiae with 4 samples.

Results

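The 38 genes described here encode the protein glycosylation machinery of the yeast Saccharomyces cerevisiae. They cover the assembly of the lipid-linked oligosaccharide (12 ALG genes), the oligosaccharyltransferase (9 genes), the protein O-mannosyltransferases (6 PMT genes), mannosyltransferases of the Golgi (8 genes) and the supply of activated mannose (3 genes). They were chosen by symbol for their place in the pathway, at a time when earlier results of these data were known. Each was read by the brightest probe set whose platform annotation names that gene alone, and all 38 were found among 5656 genes read in this way. Cultures of strain ATCC 4126 were grown on rich medium (YP) whose sugar was either galactose or glucose, and total RNA was isolated when the optical density at 600 nm was 1.0. Each sample was read on its own Affymetrix array, 4 in all with 2 per medium, and the arrays are called galactose B and C and glucose A and B after the letters in their labels. No mutation, agent or other treatment is named for either medium. Nothing in the labels tells whether a letter marks a culture of its own, so the p-values reflect no more than the spread among these 4 samples, part of which may be technical.

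N-glycosylation starts on the cytosolic face of the endoplasmic reticulum (ER), where sugars are added singly to the lipid dolichol. The oligosaccharide is flipped into the lumen, extended with mannose and glucose from dolichol-linked donors, and moved as a block to asparagines of newly made proteins by the oligosaccharyltransferase. O-glycosylation in yeast starts in the ER too, where PMT enzymes attach mannose to serine or threonine. In the Golgi both kinds of glycan are lengthened with mannose, which gives the mannoproteins of the cell wall their large mannan coat. Every mannose in these steps comes from GDP-mannose, made from a hexose phosphate of glycolysis, so the pathway draws on the carbon source of the medium.

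The labels of the media were matched by the genes that respond to galactose. The galactokinase gene GAL1 stood at 9927 and 8965 on the galactose arrays and at 36.2 and 40.4 on the glucose arrays. GAL2, GAL7 and GAL10 were likewise far higher in galactose (adjusted p from 0.00192 to 0.00207 for the 4 genes), and the glucose transporter genes HXT2 and HXT4 were lower (adjusted p = 0.0362 and 0.0210). Galactose C stood apart from the other arrays in growth genes. Against the glucose mean on the log2 scale, 28 ribosome biogenesis genes had a median of -0.51 on galactose B and of -1.96 on galactose C, and all 28 were lower on C than on B. Because of this difference the values of the galactose arrays are given separately for each of the 38 genes. In RNA of a whole culture, fewer cells in a state and less RNA per cell cannot be told apart.

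The question put to the 38 genes was whether their transcript levels differ between growth on galactose and on glucose. None passed: 0 rose and 0 fell (limma, adjusted p under 0.05), and the lowest adjusted p was 0.591, for OST6. At an unadjusted p under 0.05 there were also 0 in each direction. Over all 7302 tested probe sets, 0.794% rose and 0.0411% fell at the adjusted threshold, and 4.29% and 4.33% lay past the unadjusted one. The count of 0 is near the background share at the adjusted threshold and below it at the unadjusted one. All 38 lay above the floor for low values (an intensity of 18.5) on all 4 arrays, so none was tested only through a medium where it was high.

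The differences between the media were small. All 38 log2 differences lay between -0.68 (OST6) and 0.62 (PMT3), with a median of 0.04, against -0.01 for all tested probe sets. The difference was above 0 for 21 genes and below 0 for 17. It reached 1.5-fold for 2 genes, PMT3 and OST6, and 2-fold for 0, where 7.04% of all tested probe sets differed by at least 2-fold in either direction. The 95% interval of the difference, taken per gene without adjustment, included 0 for all 38. It lay within 2-fold each way for 26 genes and within 3-fold each way for all 38. A change of 3-fold or more in either direction is thus outside the interval of every gene, and one of 2-fold or more outside that of 26 genes. Changes smaller than these were not resolved with 2 arrays per medium. The counts at 1.5-fold and of intervals within 2-fold or 3-fold were not made over all tested probe sets, so they only describe the 38 genes. The median absolute log2 difference was 0.22 for the 38 genes, near the 0.25 of all tested probe sets.

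**Figure D1:**
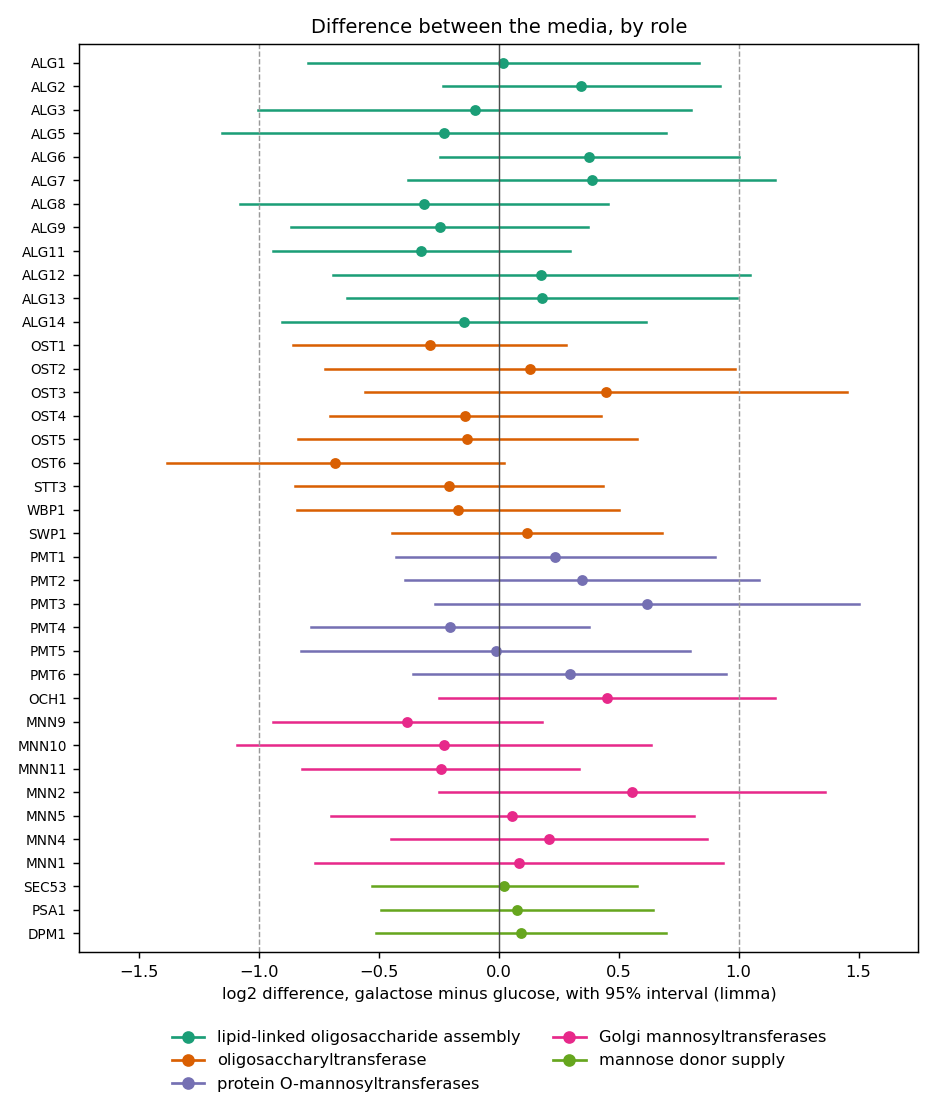
The log2 difference of each of the 38 glycosylation genes (horizontal axis, galactose minus glucose; points) with its 95% interval from limma (lines), coloured by role; dashed lines mark 2-fold. All intervals cross 0, and the points run from -0.68 for OST6 to 0.62 for PMT3.

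The spread between arrays of the same medium was larger than the difference between the media for galactose and smaller for glucose. The difference between the media is taken between means of 2 arrays and the others between single arrays, so the measures are unlike. The median absolute log2 difference between the media was 0.22 over the 38 genes. Between the galactose arrays it was 0.32, and between the glucose arrays 0.19. Over all tested probe sets the same values were 0.25, 0.38 and 0.25. The difference between the media exceeded both differences within a medium for 11 of the 38 genes. A difference of 1.5-fold or more was found between the galactose arrays for 5 genes and between the glucose arrays for 5. These counts were not made over all tested probe sets, so they only describe the 38 genes.

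The media did not overlap for 16 genes: galactose was higher on both its arrays for 8 (21.1%) and lower on both for 8 (21.1%), while 22 overlapped. Over all tested probe sets these shares were 17.0% and 22.1%, close to those of the 38 genes. The 8 higher genes were ALG2, ALG6, ALG7, SWP1, PMT3, PMT6, OCH1 and MNN2. The 8 lower genes were ALG9, ALG11, OST1, OST4, OST6, PMT4, MNN9 and MNN11. Every role group except that of mannose supply had genes on both sides.

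**Figure D2:**
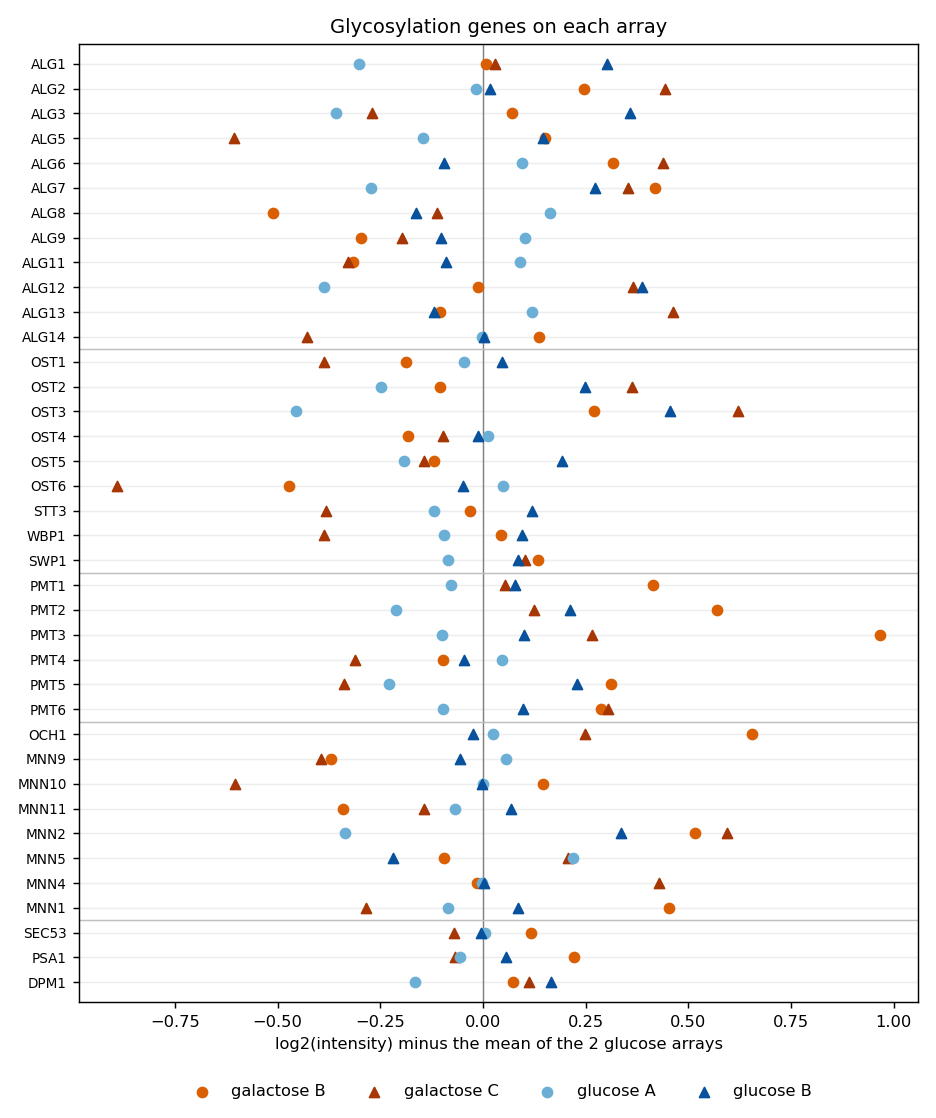
Level of each glycosylation gene on each array, as log2(intensity) minus the mean of the glucose arrays (horizontal axis), with grey lines between the role groups. The galactose and glucose symbols overlap for 22 genes, lie apart with galactose higher for 8 and apart with galactose lower for 8.

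**Figure D3:**
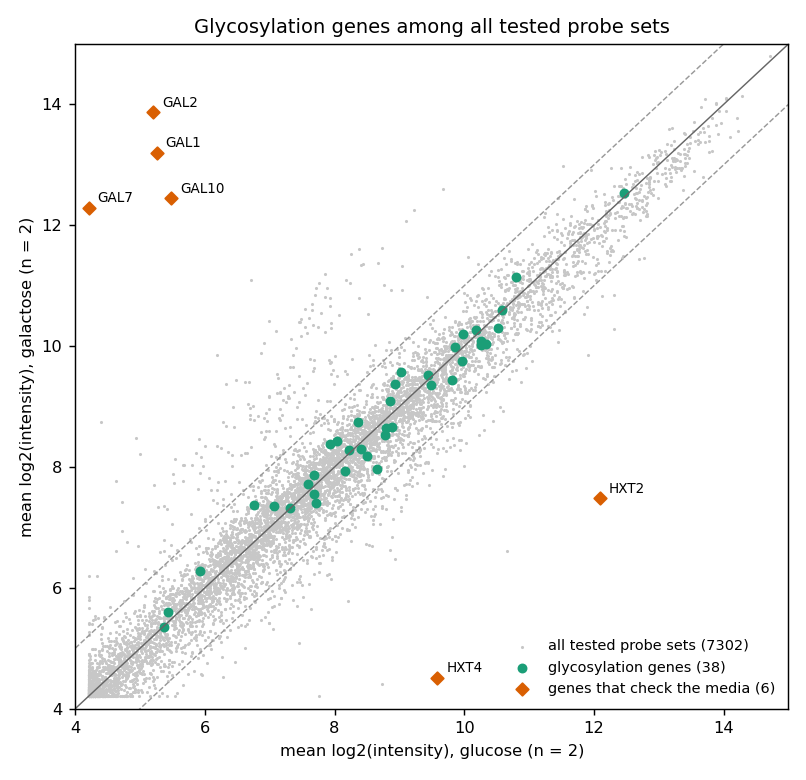
Mean log2(intensity) in glucose (horizontal) and galactose (vertical), with n = 2 arrays each, for all 7302 tested probe sets (grey), the 38 glycosylation genes (green) and the 6 genes that check the media (orange); the dashed lines mark 2-fold. All 38 glycosylation genes lie between the dashed lines, far from GAL1, GAL2, GAL7, GAL10, HXT2 and HXT4.

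The supply of activated mannose gave the smallest differences of the role groups. SEC53 (YFL045C), the phosphomannomutase, stood at intensities of 1658 and 1456 on galactose B and C and of 1534 and 1523 on glucose A and B. PSA1 (YDL055C), which makes GDP-mannose, stood at 6553 and 5361 in galactose and at 5405 and 5846 in glucose. DPM1 (YPR183W), which moves mannose to dolichol phosphate for use in the ER lumen, stood at 1219.5 and 1254 in galactose and at 1035 and 1300.4 in glucose. In all 3 genes the arrays of the media overlapped. The fold of galactose over glucose was 1.02 for SEC53 (95% interval 0.693 to 1.49), 1.05 for PSA1 (0.712 to 1.56) and 1.07 for DPM1 (0.700 to 1.62). A change of 2-fold in either direction is outside all 3 intervals.

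The genes that build the lipid-linked oligosaccharide differed in both directions, 6 of 12 above 0 and 6 below, with a median of -0.04. ALG7 (YBR243C), the first enzyme of the pathway and the target of tunicamycin, stood at 351 and 335 in galactose and at 217 and 317 in glucose. Both galactose arrays were higher, but glucose B lay close below them (1.31-fold, adjusted p = 0.762). The second sugar is added by the ALG13 and ALG14 proteins together. ALG13 (YGL047W) stood at 192 and 284 in galactose and at 224 and 189.7 in glucose, and ALG14 (YBR070C) at 490.1 and 331 against 445 and 446. The galactose arrays went opposite ways in these partners, with ALG13 higher on C and ALG14 higher on B, and in both genes the media overlapped.

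Of the cytosolic mannosyltransferase genes that follow, ALG1 overlapped between the media, ALG2 was higher on both galactose arrays and ALG11 lower on both. ALG1 (YBR110W), which adds the first mannose, stood at 159 and 162 in galactose, between the 129 of glucose A and the 196 of glucose B. ALG2 (YGL065C), which adds the next mannoses, stood at 72.4 and 83.1 in galactose and at 60.4 and 61.8 in glucose, higher on both galactose arrays (1.27-fold, 95% interval 0.851 to 1.90, adjusted p = 0.729). ALG11 (YNL048W), which completes the cytosolic mannose chain, stood at 291 and 289 in galactose and at 386 and 341 in glucose. Its galactose arrays were nearly equal and both lower (glucose 1.25-fold above galactose, adjusted p = 0.755).

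Of the mannosyltransferase genes of the ER lumen, ALG9 was apart between the media, while ALG3 and ALG12 overlapped. ALG9 (YNL219C) stood at 357 and 382 in galactose and at 471 and 409 in glucose, lower on both galactose arrays (glucose 1.19-fold above galactose, adjusted p = 0.797). ALG12 (YNR030W) stood at 42.7 and 55.5 against 32.9 and 56.3, and its media overlapped. ALG3 (YBL082C), which adds the first mannose in the lumen, stood at 355 and 280.3 against 264 and 433, with both galactose arrays between the glucose arrays. The other probe sets annotated to ALG3 also overlapped between the media, at 146 and 113 against 99.0 and 139 on the dimmer and at 224 and 114 against 188 and 241 on the other.

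The glucosylation branch, which caps the oligosaccharide before its transfer, held the highest and the lowest log2 differences of the lumenal steps. ALG6 (YOR002W), which adds the first glucose, stood at 411 and 447 in galactose and at 353 and 309 in glucose. Both galactose arrays were higher (1.30-fold, log2 difference 0.38, 95% interval -0.24 to 1.00, adjusted p = 0.725). ALG8 (YOR067C), which adds the second glucose, stood at 148 and 195 against 236 and 188, and galactose C overlapped glucose B (log2 difference -0.31, adjusted p = 0.794). ALG5 (YPL227C), which makes the glucose donor, stood at 318 and 188 against 259 and 317. Galactose B was level with glucose B there, and galactose C was the lowest array.

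The oligosaccharyltransferase genes had a median log2 difference of -0.14, with 3 of 9 above 0 and 6 below. STT3 (YGL022W), the catalytic subunit, stood at 1431 and 1121 in galactose and at 1347 and 1588 in glucose. WBP1 (YEL002C) stood at 1262 and 935 against 1146 and 1306. In both genes galactose C was the lowest array and galactose B lay between the glucose arrays. OST1 (YJL002C) stood at 1131 and 984 in galactose and at 1247 and 1331 in glucose, lower on both galactose arrays (glucose 1.22-fold above galactose, adjusted p = 0.762). SWP1 (YMR149W), the partner of WBP1 in the complex, stood at 1023 and 1001 against 879 and 989.8, with the galactose arrays higher by a gap of 0.02 on the log2 scale. The small subunit gene OST4 (YDL232W) stood at 635 and 673 against 727 and 714, lower on both galactose arrays (log2 difference -0.14). OST2 (YOR103C) stood at 179 and 247 against 162 and 228, and OST5 (YGL226C-A) at 189 and 185 against 179 and 234. Both overlapped between the media, with log2 differences of 0.13 and -0.13.

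OST3 and OST6 encode alternative subunits of the complex, each present in its own form of the enzyme, where they act as oxidoreductases that help particular acceptor sites. They had the most different log2 differences of the 9 subunit genes. OST6 (YML019W) stood at 289.8 and 217 on galactose B and C and at 416 and 389 on glucose A and B, or 253 ± 51.5 against 402 ± 19.0 (SD, n = 2 per medium). The galactose arrays were both below the glucose arrays, and glucose stood 1.60-fold above galactose (log2 difference -0.68, 95% interval -1.39 to 0.02, adjusted p = 0.591). OST3 (YOR085W) stood at 589 and 751 in galactose and at 356 and 669 in glucose. Its media overlapped, because glucose B was higher than galactose B (1.36-fold, 95% interval 0.679 to 2.74, adjusted p = 0.771).

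Within each array the change of OST3 can be set against that of OST6, a comparison chosen after their values were seen. Relative to the glucose mean, the log2 ratio of OST3 to OST6 was 0.74 and 1.51 on galactose B and C, and -0.50 and 0.50 on glucose A and B. The ratio was higher on both galactose arrays, 2.19-fold on average. The glucose arrays differed from each other by about as much as the media did, and no test was made of a pair chosen for its difference.

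**Figure D4:**
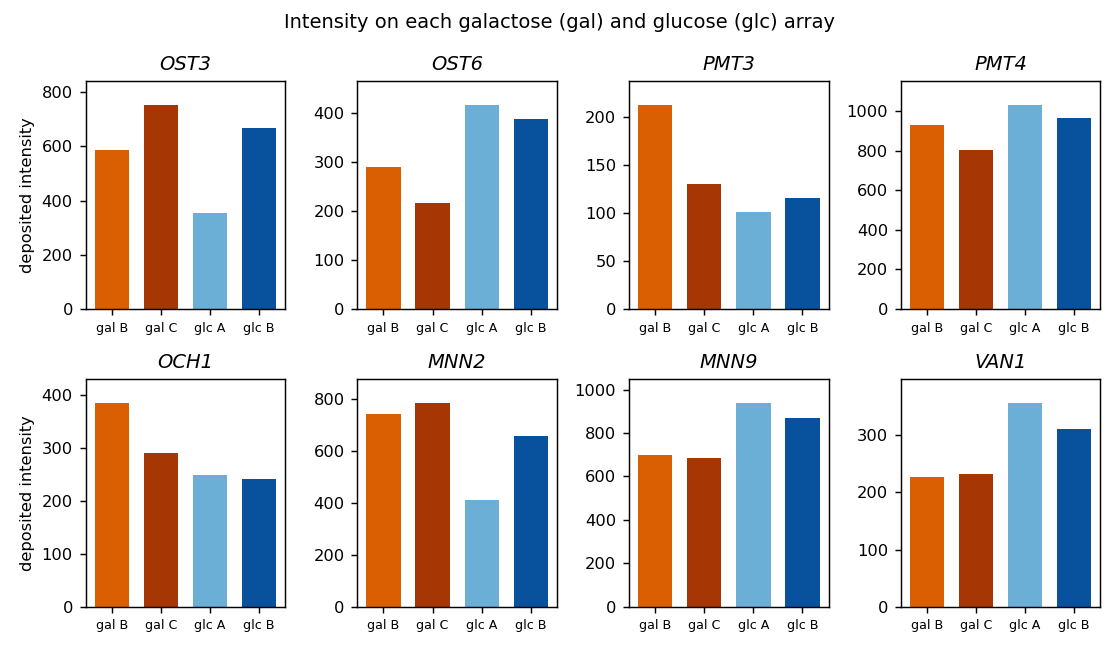
Deposited intensity (vertical axes from 0, a scale for each gene) of OST3, OST6, PMT3, PMT4, OCH1, MNN2, MNN9 and VAN1, 1 bar per array. OST6, PMT4, MNN9 and VAN1 are lower on both galactose arrays, PMT3, OCH1 and MNN2 are higher on both, and OST3 overlaps; none passed the test.

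The O-mannosyltransferase genes had the highest median of the role groups, 0.27, with 4 of 6 above 0, and most of it came from galactose B. Against the glucose mean their median was 0.36 on galactose B but 0.09 on galactose C, and 5 of the 6 genes were lower on C than on B. PMT3 (YOR321W), of the PMT2 subfamily, stood at 212 and 130.2 in galactose and at 101 and 116 in glucose. This was the largest upward difference among the 38 genes, 1.53-fold (171 ± 57.9 against 109 ± 10.6, 95% interval 0.830 to 2.83, adjusted p = 0.672). Galactose B was the high array, and galactose C lay close above glucose B.

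PMT2 (YAL023C), the name gene of that subfamily, showed a similar order of the galactose arrays. It stood at 2647 and 1943 in galactose and at 1538 and 2065 in glucose, so that galactose C overlapped the glucose arrays (1.27-fold, adjusted p = 0.769). PMT6 (YGR199W) stood at 164 and 165 against 125 and 143. Its galactose arrays were nearly equal and both higher (1.23-fold, 95% interval 0.781 to 1.93, adjusted p = 0.769). PMT1 (YDL095W), whose protein pairs with Pmt2, stood at 621 and 483 against 441 and 492, and overlapped through galactose C. PMT5 (YDL093W) stood at 51.3 and 32.6 against 35.2 and 48.4, with the galactose arrays as the highest and the lowest of the 4. PMT1 and PMT5 are next to each other in the RefSeq gene order (0 genes between), and both were higher on galactose B than on C. Other near neighbours were MNN1 and WBP1, with 1 gene between and both higher on galactose B, and MNN5 and MNN11, with 2 genes between and both higher on galactose C. Of all 38 genes, 22 were lower on galactose C than on B and 16 higher. The shared directions of neighbours are between arrays of the same medium, were not tested and are a description only.

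PMT4 (YJR143C), whose protein pairs with itself and serves mainly membrane-bound acceptors, was the only PMT gene lower on both galactose arrays. It stood at 931 and 803 in galactose and at 1028 and 965 in glucose, or 867 ± 90.8 against 996 ± 44.1. Glucose stood 1.15-fold above galactose (95% interval of galactose over glucose 0.581 to 1.30, adjusted p = 0.824), and the gap between the media was 0.05 on the log2 scale. No test of a difference between PMT4 and the other PMT genes was made.

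Among the 8 Golgi genes, OCH1 and MNN2 were higher on both galactose arrays, MNN9 and MNN11 were lower on both, and 4 overlapped. OCH1 (YGL038C), which starts the outer chain of N-glycans, stood at 384 and 289 in galactose and at 248 and 239.9 in glucose. Both galactose arrays were higher and the glucose arrays were close together (337 ± 66.7 against 244 ± 5.58, 1.37-fold, 95% interval 0.840 to 2.22, adjusted p = 0.697). MNN9 (YPL050C), a subunit of both mannan polymerases that extend the chain, stood at 698 and 686 in galactose and at 937 and 868 in glucose. Both media were tight and apart (692 ± 8.78 against 903 ± 48.6), with glucose 1.30-fold above galactose (95% interval of galactose over glucose 0.520 to 1.13, adjusted p = 0.679).

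Like MNN9, the other subunits of the mannan polymerases had a log2 difference below 0, though not all were apart between the media. They were grouped after their values were seen, and 3 of them come from the list of other Golgi mannosyltransferases. MNN11 (YJL183W) stood at 969 and 1110.4 in galactose and at 1171 and 1287 in glucose. VAN1 (YML115C), the partner of Mnn9 in the first polymerase, stood at 227 and 233 against 356 and 310.0 (glucose 1.45-fold above galactose, adjusted p = 0.612). HOC1 (YJR075W) stood at 159.7 and 160.4 against 219.8 and 195. In these 3 genes galactose was the lower medium on both arrays. MNN10 (YDR245W) stood at 523 and 311 against 474 and 473, and ANP1 (YEL036C) at 421 and 319.7 against 317 and 496, and both overlapped between the media. Of the 6 subunit genes, 6 had a log2 difference below 0, 4 were lower on both galactose arrays without overlap, where 22.1% of all tested probe sets were, and 0 passed the test (median -0.31, lowest adjusted p 0.612). Of all 7302 tested probe sets 3748 had a difference below 0. Since the subunits were grouped with these values in view, their shared sign is a description only. Of the 16 other Golgi mannosyltransferases, 4 were apart downward and 4 upward. The largest of these differences was that of KTR5 (YNL029C), a gene outside the 6, at 102 and 103 against 179 and 128 (log2 difference -0.56). MNT3 (YIL014W) went the other way, at 293 and 337 against 233 and 261 (0.35).

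Of the 4 genes for the side chains of the mannan, MNN2 was apart between the media and 3 overlapped. MNN2 (YBR015C), which adds the first branching mannose, stood at 744 and 785 in galactose and at 412 and 657 in glucose. Both galactose arrays were higher and glucose A was the low array (1.47-fold, 95% interval 0.840 to 2.57, adjusted p = 0.676). MNN5 (YJL186W), which adds the second branching mannose, stood at 279.5 and 345 against 348 and 256 and overlapped (log2 difference 0.06, adjusted p = 0.968). MNN4 (YKL201C), needed for the mannosylphosphate on side chains, stood at 1007 and 1368 against 1015 and 1018. Only galactose C was higher there, and the other probe set of MNN4 went the other way on that array, at 56.0 and 37.4 against 49.6 and 59.5. MNN1 (YER001W), which caps the chains, stood at 949.6 and 569 against 654 and 736, with the galactose arrays as the highest and the lowest of the 4.

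Other genes of secretion and glycosylation were set beside the 38 in lists chosen from knowledge of the pathway, and 0 members of any of these lists passed the test. Medians of the log2 difference were 0.10 for 10 genes of glycan trimming and ER quality control, -0.0029 for 14 of dolichol and sugar nucleotide supply, 0.03 for 16 other Golgi mannosyltransferases, 0.06 for 19 of GPI anchor synthesis and -0.02 for 20 abundant glycosylated wall and surface proteins. In the trimming list CWH41 (YGL027C), the glucosidase that takes off the outermost glucose, stood at 279 and 228 in galactose and at 176 and 198 in glucose (1.35-fold, adjusted p = 0.700). GDA1 (YEL042W), which clears GDP in the Golgi so that GDP-mannose can enter, stood at 626 and 535 against 740.1 and 790.4 (glucose 1.32-fold above galactose, adjusted p = 0.683). MCD4 (YKL165C), of GPI anchor synthesis, stood at 1273 and 577 against 386 and 551. Both galactose arrays of MCD4 were higher, galactose C only just (1.86-fold, adjusted p = 0.649).

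The list of ER translocation, folding and unfolded protein response had the highest median of the 7 lists beside the 38 genes, 0.32. Of its 18 genes 8 were higher on both galactose arrays without overlap, 1 was lower in this way and 0 passed. The shares over all tested probe sets were 17.0% and 22.1%. The log2 difference was above 0 for 12 genes and below 0 for 6. Those 6 were all translocation genes (SSS1, SBH1, SEC62, SEC63, SEC66 and SEC72), while SEC61, also of translocation, was at 0.24. This split was made after the values were seen and was not tested. Of the other genes of the list, SCJ1, JEM1 and IRE1 overlapped between the media. SCJ1 stood at 830 and 360 in galactose and at 440 and 590 in glucose, so that galactose C was its lowest array. ERO1 (YML130C), the oxidase that drives disulfide formation, stood at 578 and 356 in galactose and at 190.0 and 228 in glucose (2.18-fold, adjusted p = 0.449). SIL1 (YOL031C), a nucleotide exchange factor of the ER chaperone Kar2, stood at 255 and 107 against 81.8 and 73.7 (2.13-fold, adjusted p = 0.592). LHS1 (YKL073W), a chaperone of the lumen, stood at 549.7 and 352 against 193 and 288 (1.86-fold, adjusted p = 0.591). MPD1 (YOR288C) stood at 201 and 191 against 137 and 107 (1.62-fold, adjusted p = 0.584). Galactose B stood well above galactose C in ERO1, SIL1 and LHS1, while in MPD1 the galactose arrays were close together. Among the 8 genes higher on both galactose arrays, only PDI1 and HAC1 were higher on galactose C than on B. The list median was 0.35 on galactose B but 0.08 on galactose C, and 15 of 18 genes were lower on C than on B. The ribosome biogenesis genes were lower on galactose C too, and the part of that array in the result was not tested beyond these values.

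**Figure D5:**
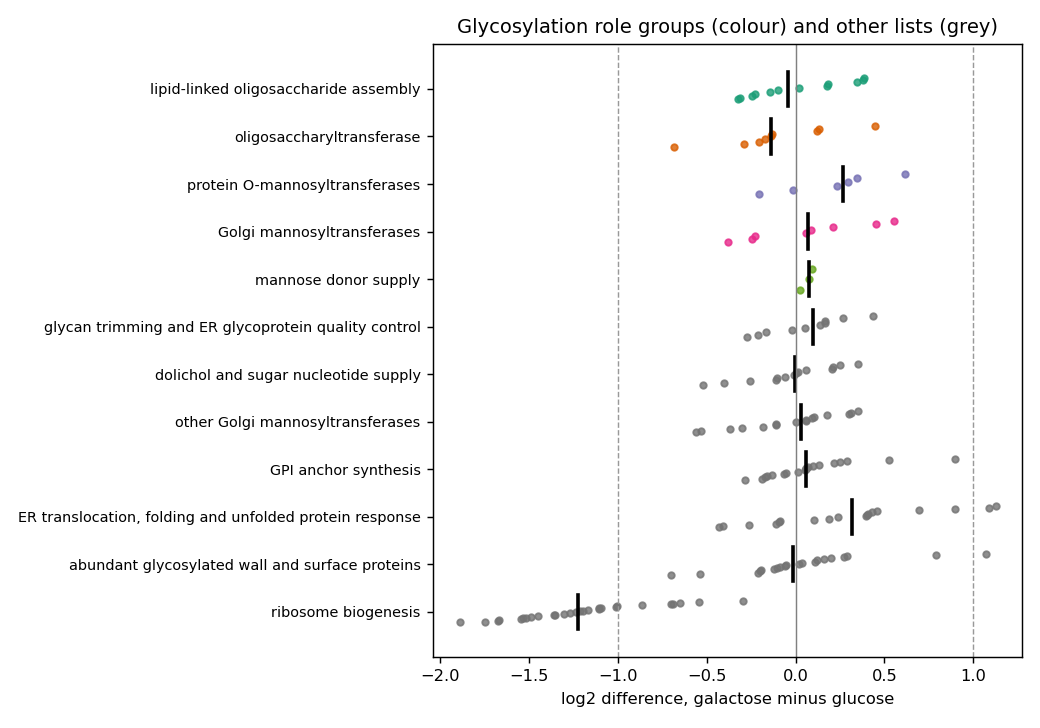
Log2 difference of galactose minus glucose for each tested gene (points) and the list median (black bars), for the 5 role groups of the 38 genes (coloured) and the 7 other lists (grey); dashed lines mark 2-fold. The role group medians run from -0.14 to 0.27, while that of ribosome biogenesis is -1.23.

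Of the 38 genes, 22 (57.9%) were lower on galactose C than on galactose B, against 51.6% of all tested probe sets. The difference reached 1.2-fold for 14 genes lower on C and for 7 higher on C, a count not made over all tested probe sets. Against the glucose mean the 38 genes had a median of 0.07 on galactose B and of -0.07 on galactose C. The glucose arrays were at -0.07 and 0.07, so that the galactose medians lay within the range of the glucose arrays. The ribosome biogenesis list had a median difference of -1.23 and 0 genes past the test (lowest adjusted p 0.349). Of its 28 genes 20 were apart downward, against 22.1% of all tested probe sets. At least 2-fold lower were 22 of its genes and 0 of the glycosylation genes, where 7.04% of all tested probe sets differed by this much in either direction.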

How the data were processed

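RNA of 4 samples was measured on Affymetrix yeast arrays. The authors deposited a linear intensity for every probe set on every array; how these were summarised and scaled is not given in the sources used here. Medians of the arrays differed by a factor of 1.08, under the limit of 1.1, so the deposited scale was kept. The 60 control probe sets were left out, values under a floor at the 25th percentile (18.5) were raised to it before log2, and 1973 probe sets that never exceeded the floor were dropped, so 7302 entered the test. Each gene was read by its brightest probe set with a single gene symbol (6504 probe sets have 1 symbol, 328 several and 2443 none), and symbols were looked up through their gene numbers in the RefSeq table of assembly R64. The media were compared with limma (version 3.58.1, under R 4.3.3; a linear model per probe set and eBayes with trend; degrees of freedom 2 residual, 4.73 total), with Benjamini-Hochberg adjusted p-values over all tested probe sets and a threshold of 0.05; intervals are limma's. The number of arrays limits the precision.

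The 38 genes and the lists were chosen with earlier results of these data known. All 38 may be named; from the other lists, up to 4 members with the largest difference among those apart between the media. ANP1, PDI1, HAC1, SCJ1, JEM1, IRE1, SEC61, SSS1, SBH1, SEC62, SEC63, SEC66 and SEC72 were named after their values were seen. Of 132 listed genes that are not among the 38, all were found (3 through an older symbol) and 131 tested; a further listed gene is not reported here. The steps were tested on simulated data. Figures were drawn with matplotlib 3.10.9 and pandas 2.3.3 in Python 3.11.15.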

Additional observations from a re-analysis of the deposited data

How the results depend on the processing

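With 2 arrays per medium only large changes can pass. None of the 38 genes passed in any of 10 other settings of the fit (lowest adjusted p 0.536) or with any array left out (lowest 0.265); with an array left out, the lone array of its medium is assumed to vary like the other medium. The count at adjusted p under 0.10 or 0.20 was also 0. Of 378 gene values in the other settings, 375 kept their sign; quantile normalization turned ALG1 to -0.0039 and PMT5 to 0.043, and averaging its probe sets turned MNN4 to -0.019. With an array left out, 128 of 152 kept their sign, and 20 genes kept it throughout. No paired analysis was possible because the media share the letter B only.

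Over all probe sets, 58 rose and 3 fell. Quantile normalization left 25 that rose and a floor at the 10th percentile left 32, and 5 rose and 1 fell both among single-symbol probe sets and with probe sets averaged per gene. The count was 0 each way with any array left out. The log2 median of the Golgi genes, 0.07, went to 0.051 under quantile normalization and to 0.018 with probe sets averaged, where that of trimming genes went from 0.10 to 0.017; that of lipid-linked oligosaccharide assembly went from -0.04 to -0.10 with the floor at the 40th percentile. The cause was not tested.

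Leaving out each array in turn gave log2 medians from -0.12 to 0.15 for the 38 genes, -0.15 to 0.16 for lipid-linked oligosaccharide assembly, -0.27 to -0.078 for the oligosaccharyltransferase, 0.089 to 0.36 for the PMT genes, 0.0027 to 0.10 for the Golgi genes and -0.068 to 0.13 for mannose supply. The other lists ranged from 0.081 to 0.39 (ER folding), 0.025 to 0.12 (trimming), -0.011 to 0.056 (GPI anchor), -0.085 to 0.094 (other Golgi), -0.066 to 0.063 (dolichol supply), -0.064 to 0.19 (wall proteins) and -1.96 to -0.51 (ribosome biogenesis). The counts of genes apart upward and apart downward each ranged from 10 to 17, since a lone array overlaps less often. Of single genes, those that changed sign ranged from -0.28 to 0.32 (ALG1), -0.46 to 0.26 (ALG3), -0.61 to 0.15 (ALG5), -0.21 to 0.56 (ALG12), -0.10 to 0.46 (ALG13), -0.43 to 0.14 (ALG14), -0.12 to 0.38 (OST2), -0.0088 to 0.90 (OST3), -0.32 to 0.061 (OST5), -0.39 to 0.044 (WBP1), -0.34 to 0.31 (PMT5), -0.61 to 0.15 (MNN10), -0.16 to 0.28 (MNN5), -0.013 to 0.43 (MNN4), -0.28 to 0.45 (MNN1), -0.070 to 0.12 (SEC53), -0.068 to 0.22 (PSA1) and -0.072 to 0.26 (DPM1).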
